A study of Homo sapiens with 12 samples.

Results

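The genes described here are the 36 genes of the unfolded protein response and of protein folding in the endoplasmic reticulum (ER) that were chosen by symbol, of 26231 genes in the authors' normalized table. All 36 were found there and, by the same gene ID, in the count tables, and 35 passed the filter on low counts. The exception was DERL3, a membrane protein of ER-associated degradation, with 17 counts over all 12 libraries, every one of them in SH2 cells. By role they comprise 4 sensors and transcription factors, 7 chaperones and co-chaperones of the HSP70 and HSP90 families, 2 lectin chaperones, 5 protein disulfide isomerases, 2 secreted or luminal stress proteins, 7 genes of ER-associated degradation, 7 of translocation and first processing, and 2 of the vesicle coat and ER membrane.

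The series asks how leukaemia cells change when they lose IGF2BP1, which binds RNA and is made in fetal tissue and in tumours. RNA came from 697 (EU3), a human B-cell precursor leukaemia line, sorted for high aldehyde dehydrogenase activity (ALDH+), which a fluorescent substrate reveals. Doxycycline switches on both the shRNA SH2, which targets IGF2BP1, and its green reporter, and the treatment protocol sorts cells for that reporter after doxycycline, so that drug, shRNA and second sort cannot be told apart in SH2 cells. The groups were SH2 cells with doxycycline and SH2 cells untreated (sets 1 to 4, n = 4 each), and cells that the labels call a control for doxycycline, treated and untreated (sets 2 and 4, n = 2 each). Each set was a new sort with its own doxycycline treatment. The protocol mentions a scrambled shRNA, but the labels do not say whether the control libraries carry it. By their labels all groups share the cell line and the ALDH+ gate. The control libraries held almost no IGF2BP1, however. T-cell markers were high in those of set 2. In those of set 4 they were mixed, and their sum lay within the range of the SH2 libraries. CD3E and CD247 were above the SH2 libraries there, CD3D was within their range and CD3G was below them. It is thus in doubt that the control cells are the same cells. SH2 and such a difference cannot be told apart when SH2 and control cells are compared. In addition, the labels name no separate clone, dose or duration of treatment.

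The unfolded protein response matches the folding capacity of the ER to its load of new secretory and membrane proteins. Its sensors IRE1 (gene ERN1), PERK (gene EIF2AK3) and ATF6 sit in the ER membrane; IRE1 splices XBP1 mRNA into the form that encodes an active transcription factor, PERK slows translation, and ATF6 is cut to release a transcription factor. XBP1 and ATF6 raise the genes of chaperones, disulfide isomerases, degradation and translocation, and B-lineage cells are known for leaning on this pathway when they turn into antibody-secreting plasma cells. Reads here were counted at the ends of transcripts next to the poly(A) tail, so XBP1 splicing, the cutting of ATF6 and the kinase activity of IRE1 and PERK were not measured.

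XBP1 and ATF6 bind short promoter elements, and the windows before the genes were searched for them. The genes were chosen as known genes of this response, so their shares of such elements are not independent of the choice. Most of the genes held none of the longer ones. RefSeq windows on GRCh38.p14, from 250 bases before to 50 after each annotated start, were found for 32 of the 36 genes. The ER stress response element (ERSE) is CCAAT, 9 bases, then CCACG, and it was searched on both strands. It occurred in 7 of these 32 genes (21.9%), against 25 of 27305 genes with a window (0.0916%). ERSE-II, ATTGG, 1 base and then CCACG, occurred in 3 (9.38%, against 0.0696% of all genes), so 10 of the 32 held one or the other. The longer element TGACGTGG occurred in HYOU1 and SSR3 (6.25%, against 0.927%), and in HYOU1 it shares bases with an ERSE-II on the other strand. Its core ACGTG, which also lies inside that longer element, occurred in 17 (53.1%, against 24.9%). The matched stretches are printed with both 5-base blocks of an element in capitals, or all 8 bases of the longer element, and each is read 5′ to 3′ on the strand of its gene, so that an element on the opposite strand appears in reverse.
HSPA5, chr9:125241381-125241419, minus strand: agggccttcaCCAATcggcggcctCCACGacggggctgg
HSP90B1, chr12:103930206-103930349, plus strand: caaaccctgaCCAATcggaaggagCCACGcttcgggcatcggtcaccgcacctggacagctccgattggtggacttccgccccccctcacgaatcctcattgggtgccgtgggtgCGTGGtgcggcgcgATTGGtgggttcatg
CALR, chr19:12938374-12938412, plus strand: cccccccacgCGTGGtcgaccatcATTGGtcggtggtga
CANX, chr5:179698768-179698806, plus strand: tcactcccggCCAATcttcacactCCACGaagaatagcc
PDIA6, chr2:10812843-10812881, minus strand: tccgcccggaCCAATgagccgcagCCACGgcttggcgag
CRELD2, chr22:49918544-49918582, plus strand: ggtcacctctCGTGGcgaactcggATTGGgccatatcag
XBP1, chr22:28800593-28800631, minus strand: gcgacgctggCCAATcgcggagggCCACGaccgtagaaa
HERPUD1, chr16:56932015-56932045, plus strand: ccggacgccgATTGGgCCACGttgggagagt
SDF2L1, chr22:21642104-21642134, plus strand: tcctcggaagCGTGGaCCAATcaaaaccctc
HYOU1, chr11:119057264-119057403, minus strand: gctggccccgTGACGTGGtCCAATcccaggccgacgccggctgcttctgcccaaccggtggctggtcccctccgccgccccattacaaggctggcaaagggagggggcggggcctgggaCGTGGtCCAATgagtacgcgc
SSR3, chr3:156554149-156554176, minus strand: ctgataacagCCACGTCAgcaaggaaac
HSP90B1 held an ERSE in either direction, and HYOU1 held 2 copies of ERSE-II. A match describes letters in a window and is not evidence of binding. The 10 genes with an ERSE or ERSE-II and the 22 with a window and neither had median log2 fold changes with doxycycline of -0.34 and -0.13 in SH2 cells and of -0.33 and -0.19 in control cells.

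The libraries held 2210291 to 3370952 reads on genes. IGF2BP1 stood at 6.28, 14.8, 25.0 and 16.2 CPM (counts per library size, the sizes scaled by TMM) in treated SH2 cells of sets 1 to 4, against 21.7, 30.5, 39.2 and 32.9 CPM in untreated ones; the log2 value, -0.99 ± 0.43 (SE), missed the threshold of the edgeR test (adjusted p = 0.983). The first principal component, with 47.8% of the variance, parted SH2 from control libraries, and on the second, set 4 of the treated SH2 cells stood alone at -80.5; in that library 6 interferon genes summed to 1077 CPM, against 62.0 to 117.5 CPM in the other 11 libraries. The 10 B-lineage markers, which check the label, were detected in every library and summed to 1069 to 2928 CPM. The 6 T-cell markers, CD3E among them, summed to 617.2 and 601.3 CPM in treated and untreated control cells of set 2. They summed to 35.5 and 54.2 CPM in those of set 4 and to 25.4 to 107.8 CPM in SH2 cells. In treated and untreated control cells of set 4, CD3E stood at 1.91 and 7.59 CPM, against at most 0.419 CPM in SH2 cells. CD247 was at 21.4 and 7.95 CPM there, against at most 4.72 CPM in SH2 cells. CD3G, at 3.06 and 18.8 CPM there, was below the SH2 libraries, at 20.9 to 85.2 CPM. The myeloid markers summed to 1.60 to 40.8 CPM, and MPO was at 0 in all but 2 libraries. The 6 plasma cell markers summed to 386 to 679 CPM in SH2 and 154 to 408 CPM in control libraries.

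In SH2 cells treated with doxycycline, most of the 35 genes were slightly below their untreated level, and none passed the test. The lowest values belonged to DNAJC3 and DNAJB11, both co-chaperones of the HSP70 chaperone BiP, followed by the lectin chaperone CALR. Of the 35, 28 had a negative log2 fold change (80%, against 46.4% of all genes tested), and their median was -0.17, against 0.03 over all 11968 genes. No gene of the 35 passed an adjusted p of 0.05 in edgeR's quasi-likelihood test, where 0.0167% of all genes did. At an unadjusted p under 0.05 there were 0 higher and 2 lower (2.22% and 2.66% of all genes), and the Wald test of DESeq2 called 0. That edgeR fit has no term for the set. With such terms added (the set as a block), none of the 35 was called either. Unadjusted edgeR p there ran from 4.68e-05 to 0.0488 for DNAJC3, DNAJB11, MANF, CALR, SEC61B, PDIA3 and HSPA5, all lower. The share of all genes under 0.05 in the block fit was not taken. In bulk RNA, fewer cells that express a gene and less of its RNA per cell cannot be told apart.

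DNAJC3, which encodes a co-chaperone of BiP that also inhibits PERK, measured 24.7, 35.7, 53.0 and 41.1 CPM in treated SH2 cells of sets 1 to 4, against 53.7, 72.3, 107 and 182 CPM in untreated ones. Every treated library was below every untreated one, as for 2.03% of all genes tested. Treated libraries averaged 38.6 ± 11.8 CPM and untreated ones 104 ± 56.8 CPM (SD, n = 4 each), which is 2.68-fold lower and -1.42 ± 0.39 on the log2 scale (fitted value and its SE). The unadjusted edgeR p was 0.00289, and after adjustment over all genes it missed the threshold (adjusted p = 0.823). With the set as a block the value was -1.32 ± 0.22 (edgeR adjusted p = 0.0707), where 0.0501% of all genes were called lower. With no filter on low counts it was called lower, at -1.44 ± 0.31 (edgeR adjusted p = 0.00385), as were 0.105% of all genes. That fit gave most genes a similar SE: MANF had 0.30 against 0.54 in the main fit, and ATF6 0.30 against 0.24. Its calls take less account of each gene's own spread. Leaving out each of the 8 SH2 libraries in turn gave values from -1.64 to -1.0, the smallest change without the untreated library of set 4.

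DNAJB11, a co-chaperone that carries unfolded clients to BiP, measured 52.4, 72.1, 73.5 and 98.7 CPM in treated SH2 cells, against 97.5, 91.9, 156 and 238 CPM in untreated ones. It was lower in each of the 4 sets, but the treated library of set 4 lay above the untreated libraries of sets 1 and 2. On the log2 scale it stood at -0.98 ± 0.32 (SE, adjusted p = 0.983), or 1.97-fold lower, and the unadjusted edgeR p was 0.00843. With the set as a block it was -0.92 ± 0.20 (edgeR adjusted p = 0.207). An annotated transcript on the same strand overlaps the last 1000 bases of this gene, and its part in the counts was not tested. Neither gene holds any of the 3 longer promoter elements in its window; DNAJC3 holds the core ACGTG.

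HSPA5, the gene of BiP itself, measured 909.9, 1434, 1546 and 1426 CPM in treated SH2 cells and 1068, 1609, 1864 and 2743 CPM in untreated ones. It too was lower in every set, and the groups overlapped, at a fitted log2 value of -0.45 ± 0.30 (SE, adjusted p = 0.983). HSP90B1, the ER member of the HSP90 family, stood at 493, 648, 473 and 682 CPM in treated and 552, 592, 599 and 1176 CPM in untreated SH2 cells (-0.35 ± 0.30). Only set 2 was higher when treated, and the untreated library of set 4 lay far above the rest. All 7 genes of this role had a negative value, from -1.42 to -0.07, with a median of -0.35. In control cells all 7 were negative too, from -0.71 to -0.11, also with a median of -0.35. The median difference between the SH2 and control responses for these 7 was 0.12.

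Among the lectin chaperones, CALR, which holds sugar-bearing proteins until they fold, measured 455, 596, 409 and 871 CPM in treated and 660.2, 906, 528 and 1822 CPM in untreated SH2 cells. Every set had the lower value in its treated library, and the log2 fold change was -0.75 ± 0.37 (SE, adjusted p = 0.983). Without the untreated library of set 4 it was -0.26, and without the treated one -1.01, each of which breaks a pair. With the set as a block CALR had -0.66 ± 0.20 (SE, edgeR adjusted p = 0.367). Its membrane-bound relative CANX had -0.17 ± 0.31.

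PDIA3, the disulfide isomerase that works with both lectins, measured 214, 292, 272 and 343 CPM in treated and 251, 349.9, 310.3 and 757 CPM in untreated SH2 cells. It was lower in 4 of 4 sets, by between 0.19 and 1.14 on the log2 scale, and its fold change was -0.57 ± 0.34 (SE, adjusted p = 0.983). Without the untreated library of set 4, which breaks a pair, it was -0.12. With the set as a block it was -0.46 ± 0.21 (edgeR adjusted p = 0.531). The other isomerases lay between -0.09 (PDIA4) and 0.10 (PDIA5). MANF, a secreted stress protein, measured 136, 142, 91.3 and 427 CPM in treated and 198, 211, 161 and 718 CPM in untreated SH2 cells. It had the lower value in every set when treated, yet the library of set 4 was the highest of its group on either side. MANF had -0.70 ± 0.54 (SE, adjusted p = 0.983), and the block fit gave -0.68 ± 0.20 (edgeR adjusted p = 0.354). In unblocked fits it became 0.07 without the untreated library of set 4 and -1.39 without the treated one.

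EDEM1, which hands misfolded glycoproteins to degradation, measured 31.4, 36.8, 15.2 and 10.8 CPM in treated SH2 cells, against 32.4, 31.1, 42.4 and 41.6 CPM in untreated ones. The sets divided: sets 3 and 4 were lower by 1.44 and 1.88 on the log2 scale, and sets 1 and 2 stood at -0.04 and 0.24. Its log2 fold change was -0.65 ± 0.36 (SE, adjusted p = 0.983). The other 5 tested genes of degradation lay between -0.54 (HERPUD1) and -0.05 (DERL2), so all 6 were negative.

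SEC61B, a subunit of the channel through which new chains enter the ER, measured 139.5, 158, 137 and 306 CPM in treated and 173, 161, 294 and 456 CPM in untreated SH2 cells (-0.55 ± 0.36). The difference was 0.03 in set 2 and 1.10 in set 3 on the log2 scale, the treated library being lower in each set. Translocation and processing genes divided by sign, with 4 of 7 negative, and SEC11C, a catalytic subunit of signal peptidase, had the highest value of all 35 at 0.32 ± 0.64. WFS1, an ER membrane protein, was measured at 7.12, 6.83, 8.89 and 1.01 CPM in treated and 3.69, 4.45, 9.39 and 3.62 CPM in untreated SH2 cells (0.17 ± 0.59). Its few counts gave set differences from -1.33 to 0.83 on the log2 scale, which had no common sign.

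None of the sensors passed the test, nor did XBP1. ERN1 (IRE1) measured 56.6, 120.4, 212 and 140.1 CPM in treated and 46.7, 114, 258 and 148 CPM in untreated SH2 cells, and XBP1 measured 185, 178, 170.3 and 189 CPM in treated and 189.7, 219, 188 and 333 CPM in untreated ones. ERN1 differed more between sets than with treatment and was highest in set 3, while XBP1 was lower in 4 of 4 sets by 0.04 to 0.81 on the log2 scale. ATF6 measured 58.6, 57.7, 76.4 and 48.2 CPM in treated and 62.3, 65.8, 107 and 70.3 CPM in untreated SH2 cells, and was lower in 4 of 4 sets. EIF2AK3 (PERK) measured 85.0, 85.0, 85.7 and 83.9 CPM in treated and 73.0, 59.3, 86.5 and 119.8 CPM in untreated SH2 cells, with higher values in 2 sets and lower ones in 2. The log2 fold changes were -0.10 ± 0.48 for ERN1, -0.37 ± 0.29 for XBP1, -0.34 ± 0.24 for ATF6 and 0.00 ± 0.28 for EIF2AK3.

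**Figure D1:**
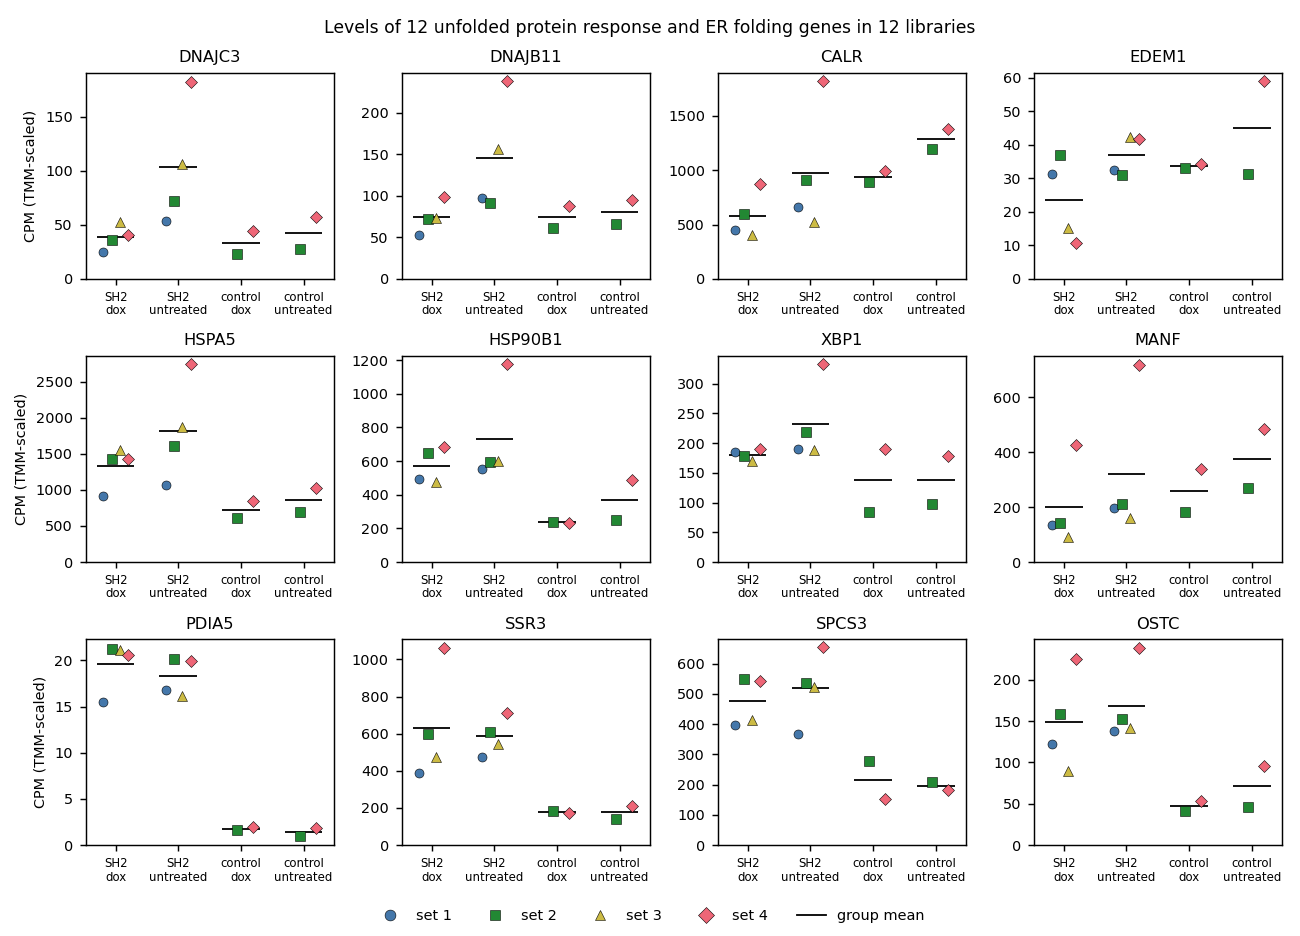
Level of 12 of the genes in each library, in CPM on a linear axis, by group, with set 1 to set 4 marked and the group mean as a line. The 4 treated SH2 libraries of DNAJC3 lie at 24.7 to 53.0 CPM, below all untreated ones, and the SH2 libraries of PDIA5 at 15.5 to 21.3 CPM, above all control libraries.

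**Figure D2:**
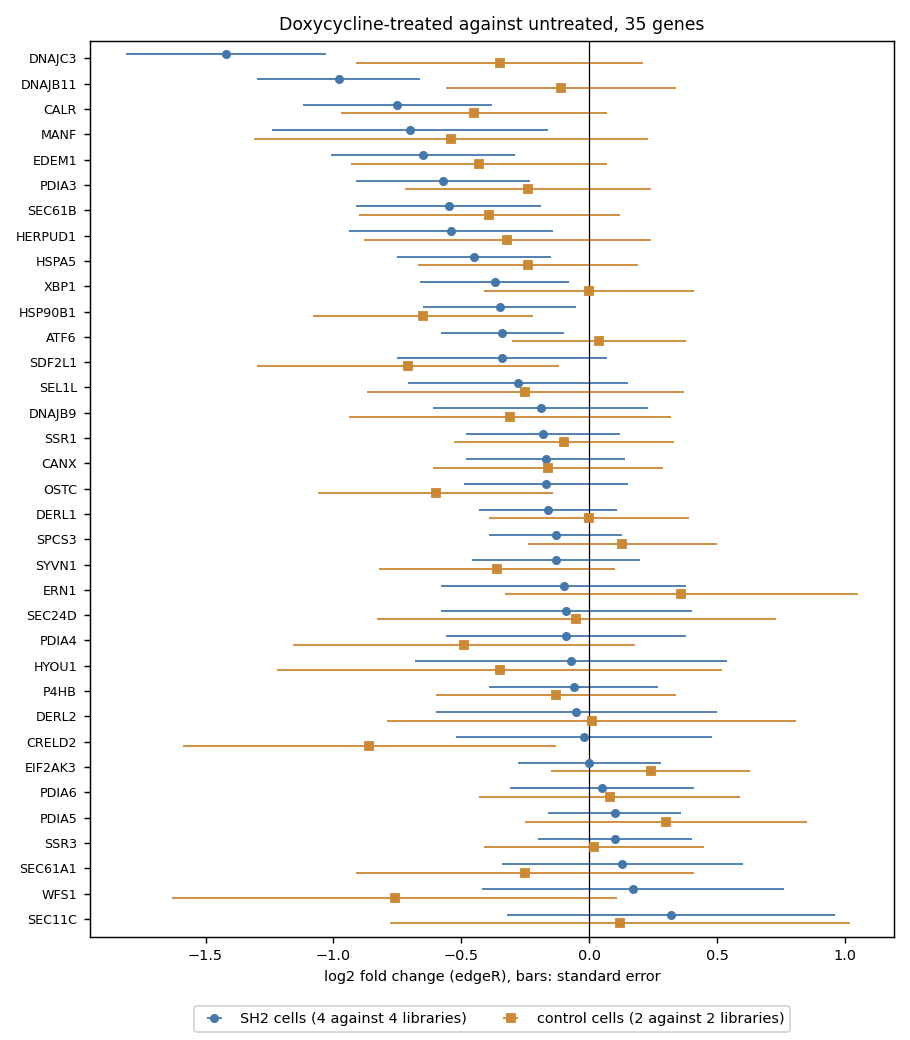
Log2 fold change with doxycycline of the 35 tested genes, in SH2 cells (circles) and in control cells (squares), with the standard error as bars. In SH2 cells 28 of 35 lie below 0 and in control cells 25, and none passed the test in either.

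The control cells show what doxycycline did without the SH2 shRNA, as far as 2 sets can. Here too most genes were slightly lower with the drug and none passed. Of the 35, 25 had a negative log2 fold change (71.4%, against 48% of all genes), with a median of -0.24 against 0.01 over all genes. The edgeR test called 0 of 35, where it called 0% of all genes; at an unadjusted p under 0.05 there were 0 higher and 0 lower (0.134% and 0.551% of all genes), and DESeq2 called 0. The median lay between -0.52 without the treated library of set 4 and 0.19 without the untreated one, each of which breaks a pair; within sets 2 and 4 it was -0.10 and -0.27. DNAJC3 measured 23.4 and 43.9 CPM in treated control cells of sets 2 and 4 and 28.0 and 57.5 CPM in untreated ones (-0.35 ± 0.56), and DNAJB11 measured 61.9 and 87.9 CPM in treated and 66.4 and 95.1 CPM in untreated ones (-0.11 ± 0.45). CALR stood at 889 and 994 CPM in treated and 1196 and 1377 CPM in untreated control cells (-0.45 ± 0.52), and its groups did not overlap. HSP90B1, SDF2L1 and PDIA4 also had both treated libraries below both untreated ones, as had 11.6% of all genes.

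Within the sets, 10 of the 35 genes were lower in the treated library in 4 of 4 SH2 sets, against 10.1% of all genes, and 0 were higher in 4 of 4, against 10.7%. In control cells 18 of 35 were lower in both sets (23.3% of all genes) and 4 were higher in both (25%). The genes lower in all 6 pairs of libraries numbered 8: HSPA5, DNAJB11, DNAJC3, SDF2L1, CALR, PDIA3, MANF and SEC61B, or 22.9% of the 35 against 3.15% of all genes. These are chaperones, their partners, a secreted stress protein and a channel subunit, and none of ERN1, ATF6, EIF2AK3, XBP1 and the degradation genes is among them. The medians over the 35 genes were -0.11, -0.03, -0.28 and -0.50 in SH2 sets 1 to 4, and -0.10 and -0.27 in control sets 2 and 4. In SH2 cells the overall median was -0.44 without the treated library of set 4, 0.07 without the untreated one and -0.23 without both.

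**Figure D3:**
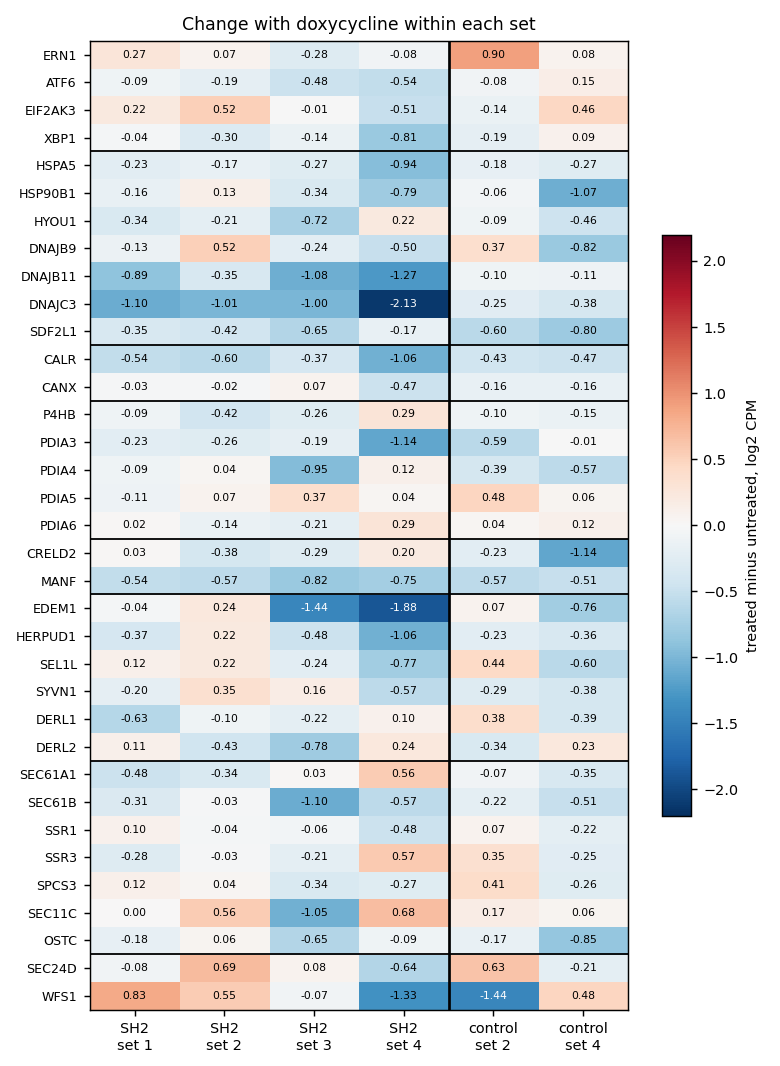
Treated minus untreated log2 CPM within each set for the 35 tested genes, grouped by role, with SH2 sets on the left and control sets on the right of the thick line. DNAJC3 is between -2.13 and -1.0 in the SH2 sets and at -0.25 and -0.38 in the control sets.

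Whether SH2 and control cells responded differently was tested as the difference between the responses. None of the 35 passed (0% of all genes did), with 0 at an unadjusted p under 0.05 in edgeR (0.485% of all genes in either direction) and 0 called by DESeq2. The median difference was -0.06, against 0.01 over all genes, and 22 of 35 were negative (49.2% of all genes). DNAJC3 had the lowest value at -1.07 ± 0.68 (SE), and DNAJB11 had -0.86 ± 0.55; the unadjusted edgeR p was 0.139 for both. With the set as a block these were -0.99 ± 0.39 and -0.81 ± 0.35, with unadjusted p of 0.0236 and 0.0346 and an adjusted p of 1 for both, in a fit that called 0.00836% of all genes lower.

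SH2 and control cells differed in 1326 genes of 11968 with doxycycline and in 938 without it, and every gene of the 35 that passed was higher in SH2 cells. PDIA5, SSR3 and SPCS3 were higher in SH2 cells both with and without the drug, and OSTC and HSP90B1 passed in treated cells. Of these, PDIA5 passed the filter on low counts only through the SH2 libraries. With doxycycline 5 of 35 genes were called higher (14.3%) and 0 lower, against 4.6% and 6.48% of all genes; without it 3 were called higher (8.57%) and 0 lower, against 2.94% and 4.9%. The median log2 fold change was 0.83 with and 0.85 without doxycycline, against 0.04 and 0.03 over all genes, and 30 and 29 of the 35 were positive. The treated and untreated comparisons use different libraries, but the same sets and cells.

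PDIA5, a disulfide isomerase, was rare in control cells. It measured 15.5, 21.3, 21.1 and 20.5 CPM in treated SH2 cells and 1.60 and 1.91 CPM in treated control cells; untreated it measured 16.8, 20.2, 16.2 and 19.9 CPM in SH2 and 0.949 and 1.81 CPM in control cells. No SH2 library came near a control library, as for 15.4% of all genes in treated and 15.5% in untreated cells for groups that do not overlap with SH2 higher. The log2 fold change was 3.46 ± 0.43 with doxycycline (SE, adjusted p = 0.000168), or 11.0-fold, and 3.65 ± 0.45 without it (adjusted p = 0.00018), or 12.6-fold. PDIA5 passed the filter on low counts only through the SH2 libraries, with 5 and 5 counts in treated and 2 and 5 in untreated control libraries and 37 to 68 in SH2 libraries, so its fold values rest on few counts. WFS1 is the other of the 2 genes that the control libraries alone would not have kept. With each library left out in turn, the log2 fold change of PDIA5 ran from 3.33 to 3.57 treated and from 3.31 to 4.21 untreated. These values are not separate support, since PDIA5 entered the test through the group where it is high. PDIA5 shares its last 1000 bases in part with exons of SEC22A on the same strand, and the part of this overlap was not tested.

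SSR3, the gamma subunit of the translocon-associated protein complex, measured 391, 599, 472 and 1062 CPM in treated SH2 cells, against 183 and 175 CPM in treated control cells. Untreated, it measured 476, 611, 547 and 713 CPM in SH2 and 143 and 209 CPM in control cells. The groups stood well apart in both conditions, with 1.82 ± 0.41 (SE, adjusted p = 0.01) treated and 1.74 ± 0.40 (adjusted p = 0.0162) untreated. Its promoter holds the longer element printed above.

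SPCS3, a subunit of signal peptidase, measured 398, 549.8, 412 and 542 CPM in treated SH2 cells, against 278 and 153 CPM in treated control cells, and 366, 536, 522 and 655 CPM in untreated SH2 cells, against 209 and 183 CPM in untreated control cells. Groups did not overlap, and the log2 fold changes were 1.14 ± 0.33 (adjusted p = 0.0414) and 1.41 ± 0.34 (adjusted p = 0.0198). OSTC, a subunit of an oligosaccharyl transferase complex, measured 122, 159, 89.9 and 225 CPM in treated SH2 cells and 40.7 and 53.1 CPM in treated control cells (1.67 ± 0.43, adjusted p = 0.0216). Untreated, it measured 138, 153, 141 and 239 CPM in SH2 cells and 46.0 and 96.2 CPM in control cells (1.23 ± 0.42, adjusted p = 0.0922). HSP90B1 was called with doxycycline, at 1.29 ± 0.39 (adjusted p = 0.0485) on 238 and 232 CPM in treated control cells, and not without it, at 0.98 ± 0.38 (adjusted p = 0.156) on 249 and 488 CPM in untreated ones. With the set as a block both were called without doxycycline too, OSTC at 1.60 ± 0.27 (adjusted p = 0.00179) and HSP90B1 at 1.24 ± 0.29 (adjusted p = 0.013). OSTC is one of 4 genes with annotated pseudogenes, which took at most 0.183% of such a gene's counts.

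These calls rested on few libraries, and not on the control side alone. Leaving out each of the 6 libraries of a comparison in turn ended the HSP90B1 call in 5 fits. It ended the SPCS3 call in 3 and the SSR3 call in 2 in each condition, the OSTC call in 2 and the PDIA5 calls in 0. Without the filter on low counts all 5 treated and 3 untreated calls remained. In that fit 13 of the 36 genes were called higher in treated and 12 in untreated SH2 cells (3.38% and 2.51% of all genes). Its SE differed little between most genes: HYOU1 had 0.38 treated against 0.79 in the main fit, and SPCS3 0.38 against 0.33. Such calls take less account of each gene's own spread. With only the groups compared 3 were called treated and 5 untreated (2.96% and 3.76% of all genes were higher), and the Wald test of DESeq2 called 9 in either condition (5.66% and 3.96%). Without the control library of set 2 the genes called were PDIA5 and SPCS3 in treated and PDIA5 in untreated cells, and without that of set 4 PDIA5 in either condition. Without both control libraries of set 2, in which the T-cell markers were high, PDIA5 alone was called in either condition, and the medians were 0.63 treated and 0.62 untreated. IGF2BP1 itself was near the limit of detection in control cells, at 0.961 and 0.382 CPM treated and 1.42 and 0 CPM untreated, so SH2 and control cells differed in it before any drug. The part of these differences between the cells in the values of the 35 genes was not tested.

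Since treated and untreated SH2 libraries of 1 set deviated together, the set was also fitted as a block. This sets SH2 against control within sets 2 and 4 and assumes a set effect shared by both cell types, which was not tested. Against the other sets, the median gene stood in set 4 at 0.59 in treated SH2 and 0.45 in treated control cells on the log2 scale. SEC11C, however, stood there at 2.68 and -0.35. Then 20 of the 35 genes were higher in treated SH2 than in treated control cells (57.1%, against 8.65% of all genes) and 22 in untreated ones (62.9%, against 5.74%), and none was lower in either (9.49% and 6.83% of all genes). Among those higher in treated cells were 6 of 7 genes of translocation and processing, 5 of 7 chaperones and co-chaperones, 3 of 5 isomerases and 2 of 6 degradation genes. In both conditions 19 were called: ERN1, HSPA5, HSP90B1, HYOU1, DNAJB9, CANX, P4HB, PDIA4, PDIA5, CRELD2, DERL1, SEL1L, SEC61A1, SEC61B, SSR1, SSR3, SPCS3, OSTC and SEC24D. SDF2L1 was called in treated cells, and DNAJB11, DNAJC3 and XBP1 in untreated ones. SEC61A1, the channel's main subunit, had 2.07 ± 0.29 treated (SE, edgeR adjusted p = 0.000366) and 1.91 ± 0.29 untreated (adjusted p = 0.000819). CRELD2, a secreted stress protein, had 2.12 ± 0.30 (adjusted p = 0.000459) and 1.54 ± 0.29 (adjusted p = 0.00403), and P4HB, a major disulfide isomerase, 1.70 ± 0.26 (adjusted p = 0.000752) and 1.69 ± 0.26 (adjusted p = 0.00105). HSPA5 had 1.09 ± 0.25 (adjusted p = 0.00922) and 1.26 ± 0.25 (adjusted p = 0.00506).

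Of the sensors and XBP1, ERN1 was higher in that fit, at 1.45 ± 0.29 treated (adjusted p = 0.00387) and 1.89 ± 0.30 untreated (adjusted p = 0.00113), and XBP1 in untreated cells at 0.93 ± 0.28 (adjusted p = 0.0428). ERN1 measured 40.4 and 56.2 CPM in treated and 21.4 and 53.1 CPM in untreated control cells of sets 2 and 4, and XBP1 84.9 and 189.5 CPM in treated and 97.3 and 178 CPM in untreated ones. EIF2AK3, at 64.4 and 139 CPM in treated and 71.2 and 101 CPM in untreated control cells, and ATF6, at 41.7 and 51.6 CPM in treated and 44.1 and 46.3 CPM in untreated ones, were not called in either condition. DNAJC3 and DNAJB11 were called in untreated cells, at 1.41 ± 0.30 (adjusted p = 0.00767) and 0.97 ± 0.27 (adjusted p = 0.0312), but not in treated ones, at 0.42 ± 0.30 and 0.16 ± 0.26. The test of that difference is the difference between responses given above, which neither passed.

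Not all members were higher in SH2 cells. CALR had a log2 fold change of -0.69 ± 0.44 treated and -0.39 ± 0.44 untreated, EDEM1 -0.52 ± 0.43 and -0.29 ± 0.43, MANF -0.38 ± 0.66 and -0.23 ± 0.66, and EIF2AK3 -0.26 ± 0.34 and -0.02 ± 0.34, none past the threshold. Within matched sets 26 of 35 genes were higher in SH2 cells in both sets when treated (32% of all genes) and 29 when untreated (34.6%). The medians within sets 2 and 4 were 0.98 and 1.31 treated, and 1.03 and 1.31 untreated.

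**Figure D4:**
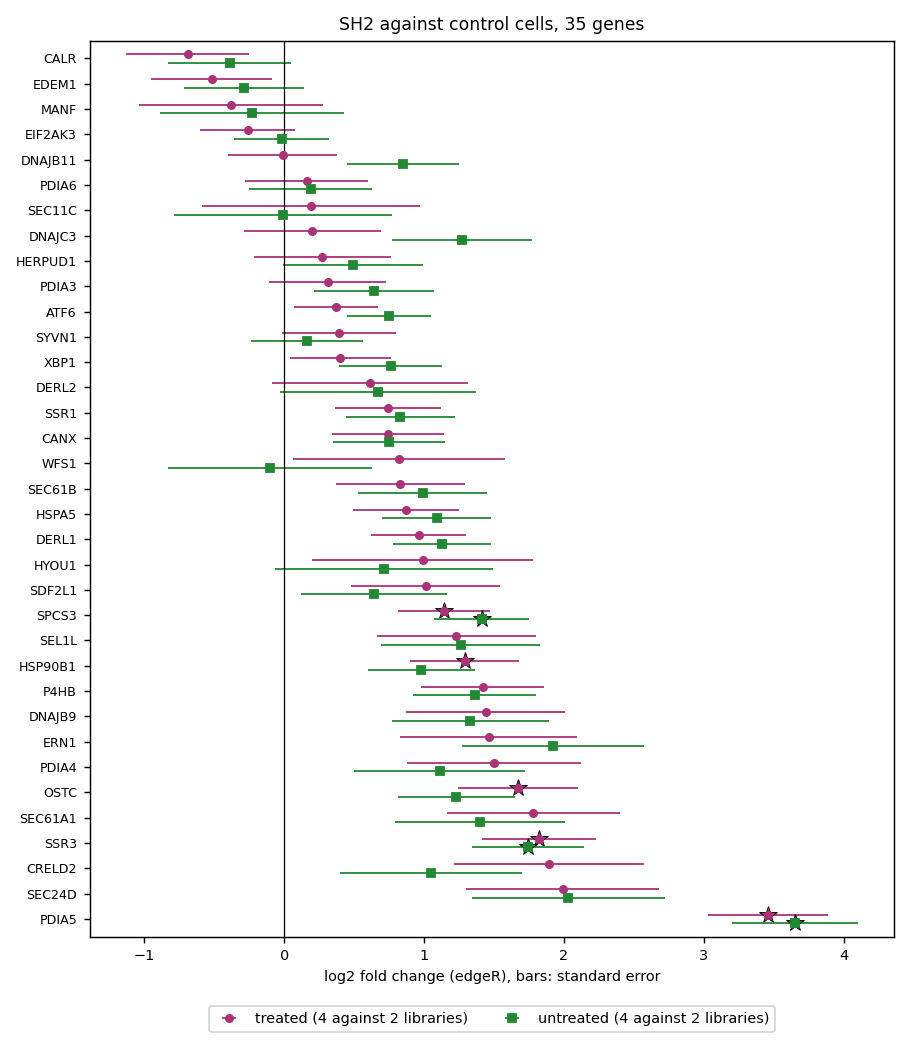
Log2 fold change of SH2 against control cells for the 35 tested genes, treated (circles) and untreated (squares), with the standard error as bars and a star where the adjusted p was under 0.05. PDIA5 stands apart at 3.46 and 3.65, and the starred genes all lie above 0.

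The largest differences among libraries of 1 group followed the set, a pattern noted after the values were seen. Summed over the 36 genes, the level was 6428, 9035, 8094 and 14596 CPM in treated SH2 cells of sets 1 to 4, 7365, 10065, 10085 and 18180 CPM in untreated ones, 5004 and 6562 CPM in treated control cells of sets 2 and 4, and 5623 and 8185 CPM in untreated ones. Set 4 was the highest in each group. The number of genes highest in set 4 was 25 of 35 in treated SH2 (33% of all genes), 29 in untreated SH2 (25.9%), 29 in treated control (50.7%) and 32 in untreated control cells (48.8%). In all 4 groups at once it was 20 of 35 (57.1%), against 6.36% of all genes and 21.2% of 80 other ER genes.

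The 20 include XBP1, CALR, CANX, CRELD2, MANF, HYOU1, SDF2L1, 4 of the 5 isomerases and 4 genes of translocation. They leave out ERN1, ATF6 and EIF2AK3, which were highest in set 4 in both control groups but not in both SH2 groups. Also left out are HSPA5, HSP90B1, DNAJB9, DNAJC3, PDIA5, EDEM1, SEL1L, DERL1, SSR3, SPCS3, SEC11C and WFS1. Against the mean log2 level of the other sets, the median gene of the 35 stood in set 4 at 0.59 in treated SH2, 1.02 in untreated SH2, 0.45 in treated control and 0.58 in untreated control cells, while the median of all genes lay between -0.01 and 0.01. CRELD2, whose window holds an ERSE, measured 55.7, 67.2, 71.2 and 230.4 CPM in treated and 54.5, 87.5, 87.5 and 201 CPM in untreated SH2 cells, and 23.7 and 33.6 CPM in treated and 28.0 and 75.2 CPM in untreated control cells. In each group its set 4 library stood above every other.

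**Figure D5:**
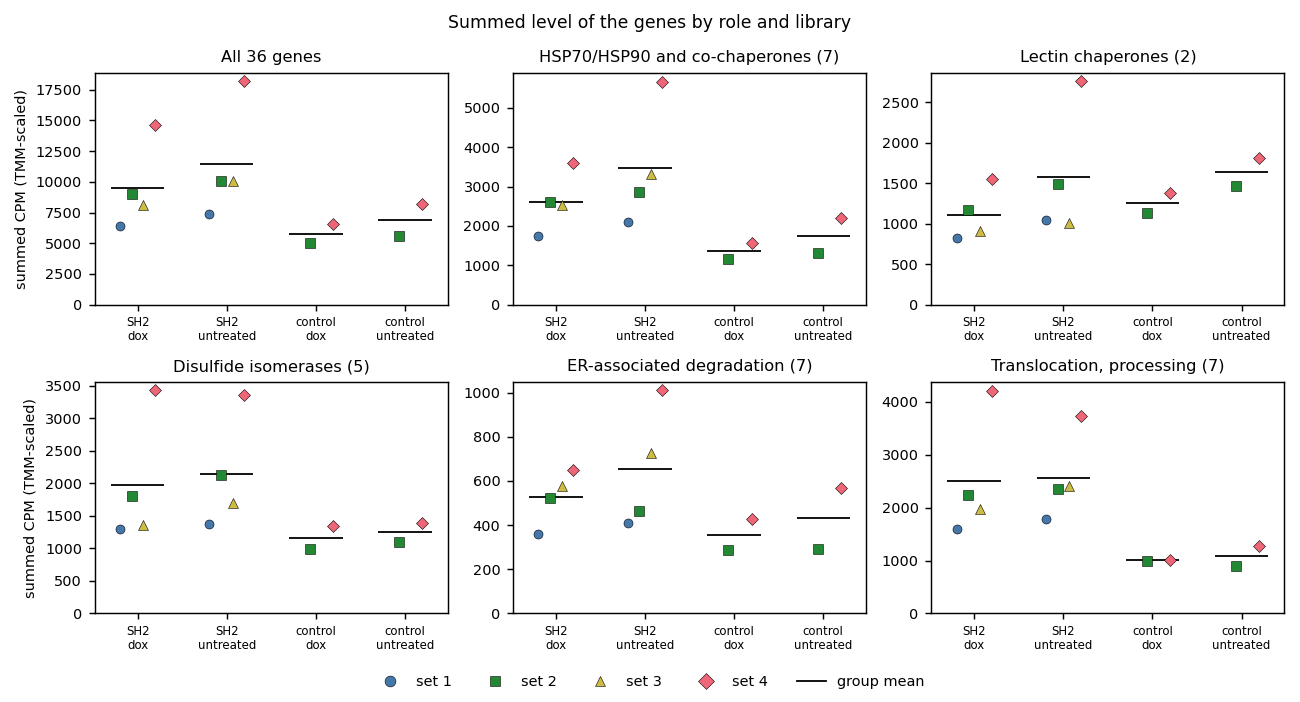
Summed CPM of all 36 genes and of 5 roles in each library, by group, with the set marked and the group mean as a line. Set 4 is the highest library of each group for the 36 genes together, from 6562 CPM in treated control to 18180 CPM in untreated SH2 cells.

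Of the 10 genes with an ERSE or ERSE-II, 8 were highest in set 4 in all groups, and of the 22 with neither, 10 were. Their medians in set 4 against the other sets were 0.69 and 0.57 in treated SH2, 1.16 and 0.96 in untreated SH2, 0.48 and 0.32 in treated control, and 0.77 and 0.56 in untreated control cells. In treated and untreated SH2 cells of set 4 the interferon genes summed to 1077 and 108.9 CPM, and the 36 genes to 14596 and 18180 CPM. These libraries also differ in drug, shRNA and second sort, and the part of the interferon genes in these values was not tested.

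A further 82 genes of ER stress output, folding, degradation, translocation and export, 80 of them tested, were set beside these. With doxycycline none was called in SH2 cells, and their median was -0.09; whether it differs from the -0.17 of the 35 was not tested. The lowest was RAB1B, a small GTPase of transport from the ER, at 12.6, 17.9, 17.1 and 18.5 CPM in treated SH2 cells and 39.8, 48.9, 39.2 and 46.2 CPM in untreated ones, and at 45.5 and 37.4 CPM in treated and 43.7 and 40.1 CPM in untreated control cells. The SH2 groups did not overlap, the value was -1.39 ± 0.23 (SE, edgeR adjusted p = 0.0796), and with the set as a block it fell by 1.4 on the log2 scale (adjusted p = 0.0243). Next was STT3A, a catalytic subunit of oligosaccharyl transferase, at -0.86 ± 0.33 (adjusted p = 0.983).

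Between SH2 and control cells 5 of the 80 were higher and 2 lower when treated, and 3 higher and 0 lower when untreated. These are 6.25%, 2.5%, 3.75% and 0%, against 4.6%, 6.48%, 2.94% and 4.9% of all genes, so the shares called higher lie near those of all genes. Their medians were 0.44 and 0.46. With the set as a block 20 were higher in either condition (25%, against 8.65% treated and 5.74% untreated of all genes), with 2 lower when treated and 0 when untreated (9.49% and 6.83% of all genes). KDELR2, a receptor that returns escaped ER proteins, measured 168, 287, 242 and 364 CPM in treated SH2 cells, against 46.5 and 74.5 CPM in treated control cells (2.13 ± 0.42, adjusted p = 0.00446). UGGT2, a glucosyltransferase that marks misfolded glycoproteins, had 3.77, 7.59, 14.5 and 9.77 CPM in treated SH2 cells and no count in any control library. It thus passed the filter on low counts only through the SH2 libraries. Against a floor of 3 counts over the treated control group it was at least 17-fold higher, and at least 12.5-fold in untreated cells. SEC61G, another channel subunit, had 2.61 ± 0.61 treated (adjusted p = 0.0129) and 2.55 ± 0.61 untreated (adjusted p = 0.0187), and SSR2 1.43 ± 0.38 treated (adjusted p = 0.0258).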

How the data were processed

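RNA ends of 12 libraries were sequenced with a QuantSeq kit, per the labels' protocols. The authors deposited HTSeq counts, whole reads per gene. The submitters' processing notes list STAR, FastQC and DESeq2 beside it and hg38 (GRCh38) as the build; versions, annotation and strand setting: not given in the sources used here. HTSeq's summary lines named no gene and were kept out; reads aligned to several places were 42.2% to 63.8% of a library's total. The authors also deposited a normalized signal table of 26231 genes, whose columns equal the counts times a constant of each library. Divided by it, 100% of values were whole (tolerance 0.01), and the count test on the recovered reads, added after the data were seen, called 2 genes for doxycycline in SH2 cells.

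From the counts, edgeR 4.0.16 in R 4.3.3 kept genes by group (filterByExpr, minimum count 10), scaled libraries by TMM and fitted all 12 libraries at once with 1 term per group (robust quasi-likelihood). P-values were adjusted by Benjamini-Hochberg over the 11968 genes tested (threshold 0.05), at a biological coefficient of variation of 0.376. The tests were tried on simulated counts. Small changes were missed in each comparison tried, some larger ones were missed too, and for doxycycline in control cells most larger ones were. A missed threshold thus does not show that a gene did not differ, least of all in control cells with doxycycline. No replicate pair agreed within sampling noise. Same-set treated and untreated SH2 libraries deviated together from their group means (correlations 0.182 to 0.655 in 4 of 4 sets). Pairs from different sets gave -0.545 to 0.271. The highest of these, treated set 2 with untreated set 1, was above the 0.182 within set 2. Each set had its own sort and treatment per the design text. Sets were therefore taken as pairs in the block fit and in the changes within sets. The main fit, which gave the values and calls not marked otherwise, left the set out. Counts limit the precision of low genes: WFS1 had 175 counts and PDIA5 460 over all libraries.

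The 36 genes, the further 82 ER genes and the marker lists were chosen with earlier results of these data known. Genes named with a value per library are the 4 sensors and transcription factors, those past the threshold in any comparison, the 4 with the smallest p in treated against untreated SH2 cells and the smallest there in each role; of the further ER genes, those past the threshold, up to 5 per comparison, and the 2 with the smallest p in SH2 cells. The values of HSPA5 and CRELD2 in every library and those of SEC61A1 and P4HB are outside the rule and were added with their values in view. Exons of another gene overlap the last 1000 bases of 10 of the 36. Promoter windows are RefSeq's, on GRCh38.p14. Alternatives used DESeq2 1.42.0, limma 3.58.1 on log2 of the deposited table (pseudocount 1), the set as a block, no filter, the compared groups alone and leaving out libraries.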

Additional observations from a re-analysis of the deposited data

Results flagged for a closer look

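Among the 17 genes given with a value per library, each SH2 group of 4 libraries was checked for a library far from the rest. Of these 34 groups, 7 were flagged. The rule flags about 1 in 20 for independent, normally distributed values, but these genes share libraries and were partly chosen by p-value. The share over all genes was not taken, so whether 7 is an excess was not tested. Of the 7 flagged, 5 are the set 4 library. MANF stood at 427 CPM in treated SH2 cells of set 4, where the next library had 142 CPM, and at 718 CPM in untreated cells of that set, where the next had 211 CPM. SEC61B stood at 306 CPM in treated SH2 cells of set 4, against a next value of 158 CPM. HSP90B1 stood at 1176 CPM and OSTC at 239 CPM in untreated SH2 cells of set 4, where the next libraries had 599 and 153 CPM. The other 2 are low genes: PDIA5 was lowest in treated SH2 cells of set 1, at 15.5 CPM with the next at 20.5 CPM, and WFS1 was highest in untreated SH2 cells of set 3, at 9.39 CPM with the next at 4.45 CPM.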

How the results depend on the processing

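No setting tried made the test call any of the 35 genes in control cells with doxycycline or in the difference between responses. In treated against untreated SH2 cells, without the filter on low counts, 47 genes were called and 1 of the 35 (DNAJC3); 6 genes were called with the replicate block, 0 with only the groups compared, 1 without both SH2 libraries of set 4 and 16 by DESeq2. Without the filter 3 genes were called in control cells and 3 in the difference, which had 1 with the block and 2 by DESeq2. For SH2 against control cells, treated, the genes called numbered 2171 with the replicate block, 789 with only the groups compared, 652 with only sets 2 and 4 and 646 without both control libraries of set 2. Of the 35, 20 were then called with the block, 13 without the filter, 3 with only the groups compared (2.96% of all genes were higher), 9 by DESeq2 (5.66%) and 1 without both control libraries of set 2; the median was 1.16 with only sets 2 and 4 and 0.59 without both SH2 libraries of set 4. Untreated, the genes called numbered 1449 without the filter, 1505 with the block, 413 with only sets 2 and 4 and 322 without both control libraries of set 2. Of the 35, 22 were called with the block, 12 without the filter, 5 with only the groups compared (3.76%), 9 by DESeq2 (3.96%) and 1 without both control libraries of set 2. That median was 1.14 with the block and with only sets 2 and 4, 0.56 when both SH2 libraries of set 4 and 0.62 when both control libraries of set 2 were left out. The block changed no call among the 35 in either doxycycline response or in their difference, and in SH2 against control it added calls and ended none. Leaving out 1 library at a time gave 0 to 3 genes called in SH2 cells with doxycycline, and 645 to 1462 treated and 343 to 853 untreated in SH2 against control. Of the 35, 0 were called in SH2 cells, 1 to 9 in treated and 1 to 4 in untreated SH2 against control; the medians ran from -0.44 to 0.07 in SH2 cells, -0.52 to 0.19 in control cells, -0.43 to 0.23 for the difference, and 0.59 to 1.03 treated and 0.56 to 1.26 untreated in SH2 against control. In SH2 cells with doxycycline SSR3 became -0.16 without both libraries of set 4 and WFS1 -0.04 in limma-trend. With 1 library left out, ERN1 ran from -0.43 to 0.37, OSTC from -0.44 to 0.05, MANF from -1.39 to 0.07 (it was lower in all 4 sets), SSR3 from -0.27 to 0.28 and WFS1 from -0.10 to 0.60; each such fit breaks a pair. The cause of these shifts was not tested. Settings with only sets 2 and 4, or without both control libraries of set 2, were chosen after seeing the data.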
